A study of Mus musculus with 15 samples.

Results

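Mouse embryonic stem cells (mESCs) that carry a degron tag on NSD1 were compared with wild-type mESCs of the same E14 line, by poly(A) RNA-seq. The comparison used 9 of the 15 libraries of the series: the 3 nontreated NSD1-dTAG mESC libraries, and all 6 wild-type mESC libraries, of which 3 were nontreated and 3 had received 500 nM dTAG-13 for 72 h. The members were taken from the genotype and treatment labels, not from measured values. All 9 libraries came from cells grown on gelatin in 2i/LIF medium, which keeps mESCs naive by blocking the kinases MEK and GSK3 and adding the cytokine LIF. The NSD1-dTAG cells had received no dTAG-13, the small molecule that brings a dTAG-fused protein to cereblon for degradation. The 6 remaining libraries, embryoid bodies of the tagged line, served only for single values. How many clones the tagged cells come from is not given in the sources used here. The tag and any other difference between the tagged and the wild-type cells therefore cannot be told apart. The labels call the libraries of a group biological replicates and say no more of their origin, so the spread behind the p-values may be technical.

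NSD1 is a histone methyltransferase that places methyl groups on lysine 36 of histone H3, mainly outside gene bodies, and its human gene is mutated in Sotos syndrome. Dimethylated H3K36 is a mark that the DNA methyltransferase DNMT3A can bind through its PWWP domain. A number of germline genes are kept silent in other cells by methylation of their CpG-rich promoters and by a Polycomb complex that holds the E-box binding proteins MGA and MAX and the factor E2F6. A comparison of a tagged line before any degrader is given with its wild-type parent shows how far the starting point of a degron experiment differs from wild-type.

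Gene counts summed to 18704591 to 29103958 per library. Levels are given in CPM, counts scaled to library size as set out under the processing of the data. Nsd1 itself (chromosome 13, 55209782 to 55318325, GRCm38) was at 173, 353 and 346 CPM in the NSD1-dTAG libraries. In the wild-type libraries Nsd1 was at 244 to 391 CPM, median 383. The 2 groups overlapped and Nsd1 was not called (log2 fold change -0.26, SE 0.23, edgeR adjusted p = 0.58). In each group of 3, 1 library stood apart from the other 2: library 1 of the NSD1-dTAG cells, library 1 of the nontreated and library 3 of the treated wild-type cells. Their exon length, averaged over counts, was lowest (4.99, 5.43 and 5.25 kb, against 5.71 to 5.78 kb in the other 6) and the highest share of counts on cytosolic ribosomal protein genes (8.76%, 6.27% and 6.43%, against 5.16% to 5.37%). The first principal component of the 9 libraries, with 70.7% of the variance, followed these 3 libraries, and the second, with 19.9%, placed the 3 NSD1-dTAG libraries (6.57, 12.9 and 12.1) above all wild-type libraries (-8.33 to -3.74). The part of library quality in single results was not tested beyond leaving these libraries out. Of the 165 genes looked at singly, 57 have exons that overlap another gene, Mest, Dnmt3a and Rpl15 among them, and their counts are uncertain because the strand used in counting is not given in the sources used here.

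The labelled cell type was borne out by its markers. All 9 mESC markers, Pou5f1, Sox2 and Nanog among them, passed the filter on low counts, and together they made up 6094 to 6644 CPM in the tagged and 5521 to 5725 CPM in the wild-type libraries. The 9 markers of fibroblast feeder cells summed to 4.99 to 6.35 CPM and 3.62 to 4.94 CPM, with Col3a1, Postn, Dcn and Lum at 0. The sums of 8 endoderm, 6 trophoblast and 6 neuroectoderm markers stayed below 10 CPM in every library, with Tpbpa and Neurog2 among those at 0. The 6 primitive streak and mesoderm markers summed to 36.3 to 40.6 CPM in the tagged and 33.7 to 41.1 CPM in the wild-type libraries, with 1 of them, Kdr, called higher. Of 7 markers of two-cell-like cells, 6 were matched, and their sum was at most 0.255 CPM.

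Against all wild-type libraries, 1150 of 14094 tested genes (8.16%) were called at an adjusted p below 0.05, 463 of them higher (3.29%) and 687 lower (4.87%) in the tagged cells. Of the called genes, 1118 did not overlap between the 3 tagged and the 6 wild-type libraries, and of all tested genes 1934 (13.7%) did not. Genes that fell lay at low levels (median 4.92 CPM in wild-type) and moved further (median log2 fold change -0.77) than genes that rose (median level 18.7 CPM, median log2 fold change 0.45). A change of at least 2-fold was reached by 201 of the genes that fell and by 35 of those that rose. Without NSD1-dTAG library 2 the count was 713, and without the 3 libraries that stand apart it was 3947, 2033 higher and 1914 lower, so that falls no longer outnumbered rises. With ERCC spike-in totals as library sizes, the median of all genes moved from 0.02 to -0.13. The calls were then 20 higher and 273 lower. The ERCC share was highest in NSD1-dTAG library 1, at 0.496% of counts against 0.292% to 0.373% in the other libraries. Without that library the tagged mean share went from 0.039 percentage points above to 0.026 below wild-type. How far results with ERCC scaling rest on it was not tested.

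The strongest fall among genes of at least 1 CPM was that of Mest, an imprinted gene of chromosome 6 that is expressed from the paternal allele and encodes an alpha/beta hydrolase family protein. Mest was at 0.765, 0.477 and 0.455 CPM in the tagged libraries and at 26.8 to 31.3 CPM, median 27.7, in wild-type, with no overlap (log2 fold change -5.62, SE 0.14, adjusted p = 2.26e-08). The neighbouring Copg2, which lies on the opposite strand and overlaps the end of Mest, did not follow: it was at 80.9, 92.4 and 91.5 CPM against 80.1 to 90.4 CPM (log2 fold change 0.05, adjusted p = 0.717). In the day 6 embryoid bodies of the tagged line Mest was at 2.91, 4.06 and 2.83 CPM without and 1.6, 2.31 and 1.74 CPM with dTAG-13, where no wild-type embryoid bodies are set beside them.

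Other genes came close to or reached 0 in the tagged stem cells. Jpx, a noncoding RNA gene of the X inactivation centre that is known as an activator of Xist, had 0 counts in all 3 tagged libraries and 95 counts over the wild-type libraries (0.472 to 0.847 CPM). Against a floor of 3 counts over the group, it was at least 16.8-fold lower (adjusted p = 0.000607). It was counted again in embryoid bodies of the same line, at 0.746, 0.926 and 0.743 CPM without dTAG-13 and 0.978, 1.49 and 1.24 CPM with it. Nnat, a paternally expressed imprinted gene for a membrane proteolipid, had 1 count in the tagged against 73 in the wild-type libraries, a ratio of 38.6 (95% counting interval 6.72 to 1550, adjusted p = 0.00139). Its level in embryoid bodies was 0.41, 0.392 and 0.557 CPM, and with dTAG-13 0.117, 0.299 and 0.193 CPM. Floors and intervals cover counting error only.

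Among the further genes with the largest falls, Hs6st2, a heparan sulfate 6-O-sulfotransferase gene of the X chromosome, was at 0.0365, 0.147 and 0.248 CPM in the tagged against 0.882 to 1.48 CPM in the wild-type libraries (log2 fold change -2.94, SE 0.38, adjusted p = 0.00148). Hfe, the haemochromatosis gene that regulates iron uptake, was at 0.364, 0.11 and 0.0414 CPM against 0.996 to 1.52 CPM (-2.79, SE 0.39, adjusted p = 0.00207). The groups did not overlap for either gene, a condition of the rule by which the largest changes were named. Nrcam, a neuronal cell adhesion molecule, fell by 1.89 (adjusted p = 0.000321), Arrb1, which encodes beta-arrestin 1, by 1.92 (adjusted p = 0.00105) and Myrf, a membrane-bound transcription factor of oligodendrocytes, by 1.98 on the log2 scale (adjusted p = 0.00207). Tex15, which acts in meiosis and in silencing of transposons in the male germ line, was at 2.73, 6.75 and 8.28 CPM against 12.2 to 23.5 CPM (-1.75, SE 0.31, adjusted p = 0.00777).

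The largest rises were smaller than the largest falls. Synpo2l, a cytoskeletal gene of heart and skeletal muscle on chromosome 14, was at 1.90, 2.20 and 2.52 CPM in the tagged and 0.419 to 0.701 CPM in the wild-type libraries (log2 fold change 1.98, SE 0.16, adjusted p = 0.000124). Meis2, a homeobox gene of the TALE class, was at 33.5, 38.8 and 37.3 CPM against 12.3 to 16.8 CPM (1.34, SE 0.11, adjusted p = 0.000124). Nkx6-3, another homeobox gene, was at 22.1, 20.2 and 17.3 CPM against 8.03 to 9.22 CPM (1.22, SE 0.08, adjusted p = 6.03e-05). The groups did not overlap for these 3 genes, which the rule for naming the largest changes requires. Msln, which encodes mesothelin (1.37), Htra1, a secreted serine protease (1.10), and Msc, a basic helix-loop-helix repressor gene (1.10), rose as well, with adjusted p of 0.00364, 0.000366 and 0.00091.

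**Figure D1:**
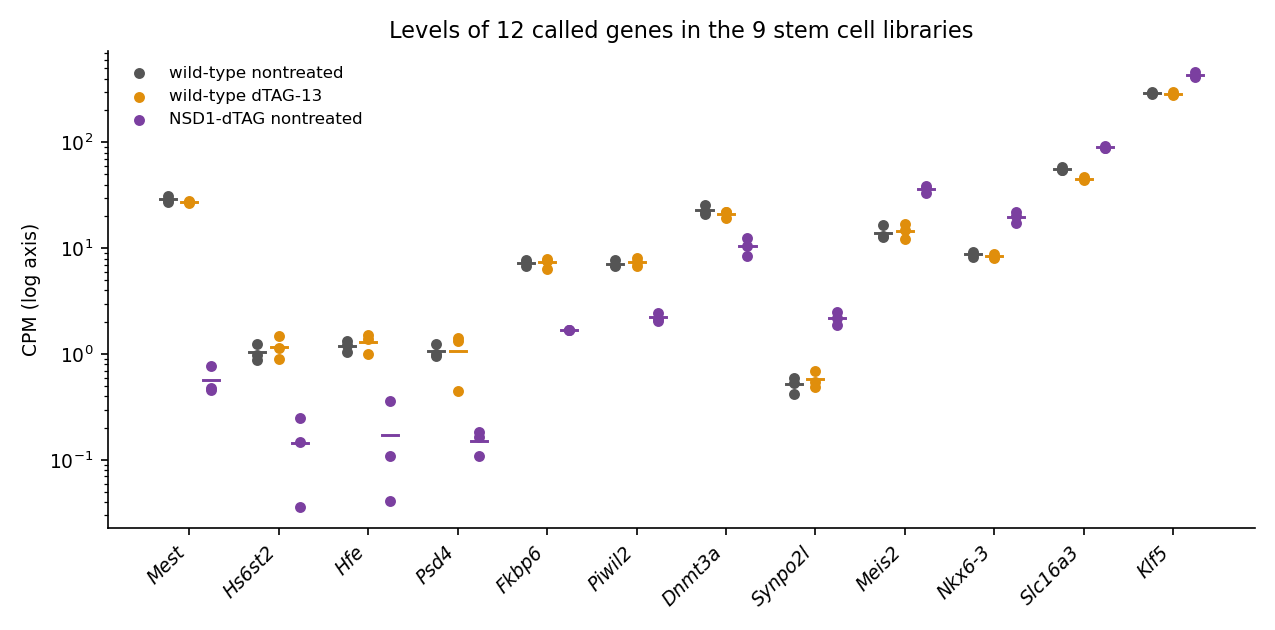
Levels of 12 called genes in CPM on a log axis, with 1 point per library and a line at the mean of each group of 3 (grey, wild-type nontreated; orange, wild-type dTAG-13; purple, NSD1-dTAG). For each gene the 3 purple points lie wholly below (Mest to Dnmt3a) or above (Synpo2l to Klf5) the 6 wild-type points, and Mest stands furthest apart, at 0.566 against 28.2 CPM on average. The genes were picked among called genes, of which 1118 of 1150 do not overlap between the groups.

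Most tested germline genes fell. Of 24 genes listed as germline genes silenced by promoter methylation, 19 were tested, 14 fell and 0 rose, with a median log2 fold change of -0.77 against 0.02 over all tested genes. Over all tested genes 3.29% rose and 4.87% fell, the shares to set beside the counts of this and every later list. The lists were chosen with earlier results of these data known, so the counts are descriptions. In bulk RNA, fewer cells with a transcript and less transcript per cell cannot be told apart. Fkbp6, a germ cell immunophilin of the piRNA pathway and meiosis, was at 1.68, 1.69 and 1.70 CPM against 6.42 to 8.0 CPM (log2 fold change -2.12, SE 0.11, adjusted p = 9.12e-06). Sohlh2, a basic helix-loop-helix factor of early germ cell differentiation, was at 9.70, 9.83 and 9.77 CPM against 16.1 to 19.8 CPM (-0.90, SE 0.08, adjusted p = 0.000166). Dazl, a germ cell RNA-binding protein, was at 3.28, 2.46 and 2.36 CPM against 4.69 to 5.75 CPM (-0.96, SE 0.13, adjusted p = 0.0016). No tagged library reached the wild-type range for any of the 3. The germline count was 10 with ERCC scaling and 10 to 14 with single libraries left out.

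The piRNA pathway, in which PIWI proteins loaded with small RNAs silence transposons in germ cells, overlaps this list. Of its 14 tested genes 7 fell and 0 rose. Piwil2, one of the PIWI proteins, was at 2.08, 2.17 and 2.44 CPM against 6.78 to 8.07 CPM (-1.71, SE 0.10, adjusted p = 2.96e-05). Tdrd5, a Tudor domain protein, was at 1.24, 1.54 and 1.28 CPM against 2.61 to 3.35 CPM (-1.15, adjusted p = 0.000784), and Mov10l1, the helicase that processes piRNA precursors, at 1.82, 2.24 and 2.11 CPM against 2.85 to 4.30 CPM (-0.77, adjusted p = 0.00768). Tdrd1 fell from 0.556 to 0.163 CPM on average (-1.73, adjusted p = 0.0122), a call lost without NSD1-dTAG library 2. The other piRNA genes were not all lower: Piwil1 and Pld6 were at 0.05 and 0.06, Gtsf1 at -0.09 and Tdrd12 at -0.06 on the log2 scale, none of them called. Of 11 tested genes of the meiotic chromosome axis and synapsis, 3 fell and 0 rose, where 4.87% of all tested genes fell.

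Promoter sequences were read for these germline genes because the genes moved together and some germline genes are known targets of E-box and E2F6 binding proteins. RefSeq promoters (build GRCm38.p6) were matched for 17 of the 19 tested germline genes, and the 250 bases upstream of each start were searched on both strands for the E-box CACGTG, which reads the same on both strands, and for TTCCCGC, a motif of E2F factors. Matches of the 2 motifs were counted separately. The E-box was present upstream of 11 of the 17 genes (64.7%), against 6.86% of 27018 genes with a promoter and 10.1% of 10152 tested genes. TTCCCGC was present in 5 of the 17 (29.4%), against 4.38% and 8.36%. Of the 12 matched germline genes that fell, 8 held the E-box (66.7%) and 3 held TTCCCGC (25%). Sycp1, Sycp3 and Stk31, which were not called, hold the E-box too, while Rpl10l and Tex19.1, also not called, do not. The E-box share was thus much the same with or without the uncalled genes. Among all genes that fell the shares were 11.3% and 10.7%, and among those that rose 9.17% and 5.33%. These shares are those of the list and say nothing of binding. The upstream bases of 4 genes that fell are given 5′ to 3′ in the direction of the gene, with E-box letters in capitals. They are Fkbp6 (chr5:135350045-135350294, minus strand), Tdrd1 (chr19:56825959-56826208, plus strand) and Mov10l1 (chr15:88982744-88982993, plus strand), which hold the motif, and Sohlh2 (chr3:55181794-55182043, plus strand), which fell and holds neither motif in this window.
Fkbp6: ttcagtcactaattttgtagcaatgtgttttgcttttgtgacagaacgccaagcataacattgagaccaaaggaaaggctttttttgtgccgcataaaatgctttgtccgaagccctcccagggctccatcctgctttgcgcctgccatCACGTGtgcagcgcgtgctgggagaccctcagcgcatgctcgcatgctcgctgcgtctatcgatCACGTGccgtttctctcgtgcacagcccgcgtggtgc
Tdrd1: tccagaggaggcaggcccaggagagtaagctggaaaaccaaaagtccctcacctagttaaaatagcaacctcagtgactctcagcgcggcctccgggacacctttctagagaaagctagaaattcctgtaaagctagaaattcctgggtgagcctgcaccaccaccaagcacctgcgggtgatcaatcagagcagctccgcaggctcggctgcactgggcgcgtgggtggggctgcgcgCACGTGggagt
Mov10l1: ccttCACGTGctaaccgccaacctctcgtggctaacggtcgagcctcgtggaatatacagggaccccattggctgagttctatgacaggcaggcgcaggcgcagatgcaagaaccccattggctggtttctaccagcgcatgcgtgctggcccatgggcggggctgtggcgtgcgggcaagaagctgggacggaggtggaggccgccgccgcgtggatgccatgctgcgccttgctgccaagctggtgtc
Sohlh2: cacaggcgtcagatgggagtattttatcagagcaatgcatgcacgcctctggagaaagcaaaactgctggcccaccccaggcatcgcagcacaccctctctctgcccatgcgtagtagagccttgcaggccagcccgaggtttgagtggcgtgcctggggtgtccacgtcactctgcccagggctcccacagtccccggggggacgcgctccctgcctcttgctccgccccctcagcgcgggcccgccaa
Fkbp6 has 2 E-boxes in these bases, and Tdrd1 and Mov10l1 have 1 each. The 4 stretches hold 17, 11, 19 and 14 CpG dinucleotides. At other starts, the highest counts were 29 for Fkbp6 and 22 for Tdrd1, and by each gene's highest count the median over tested genes was 17.

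Of 19 tested genes of DNA methylation, 4 fell and 0 rose, where 4.87% of all tested genes fell. Dnmt3a, the de novo methyltransferase whose PWWP domain reads methylated H3K36, was at 8.38, 10.5 and 12.6 CPM in the tagged against 19.3 to 25.5 CPM in the wild-type libraries, with no overlap (log2 fold change -1.07, SE 0.13, adjusted p = 0.00091). Uhrf2, a relative of the maintenance factor Uhrf1, was at 20.3, 23.0 and 24.9 CPM against 33.4 to 39.3 CPM (-0.65, adjusted p = 0.0012). The other 2 calls were Apobec2 (-1.24, adjusted p = 0.0177), which was not called without NSD1-dTAG library 2, and Mbd1 (-0.25, adjusted p = 0.0396), which kept its call under 8 of the 19 alternatives. Dnmt1, Uhrf1, Dnmt3b, Dnmt3l, Tet1 and Tet2 were at 0.00, 0.04, -0.09, 0.16, 0.10 and 0.44 on the log2 scale and were not called. Without NSD1-dTAG library 2 the list had 2 falls.

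None of the 20 tested genes listed as H3K36 methylation enzymes and readers was called, Nsd2 at -0.17 (adjusted p = 0.482) and Nsd3 at -0.10 (adjusted p = 0.742) included. Dnmt3a, which fell as given above, is not on that list. The 32 tested genes within 1 Mb of Nsd1 also held 0 calls, and so did the 13 tested genes of the degrader machinery, among them Fkbp1a (0.09, adjusted p = 0.663) and Crbn (0.11, adjusted p = 0.418). Among the 13 tested subunits and partners of Polycomb repressive complex 2, Epop, an accessory subunit, rose by 0.55 (adjusted p = 0.0144), and no other was called. A p above the threshold does not show that these genes were equal. Over all tested genes 8.16% were called, so few calls would fall in lists of this size. Without the 3 libraries that stand apart, 4 of the 20 H3K36 genes were called higher and 3 lower, and 5 and 3 of the 32 near Nsd1. The degrader list then had 1 and 1 and the Polycomb list 4 and 3, where 2033 and 1914 of 14055 genes were called.

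Imprinted genes showed no common direction. Of 19 tested paternally expressed genes, Mest and Nnat fell, while Zrsr1 (0.67, adjusted p = 0.000653) and Plagl1 (0.37, adjusted p = 0.0431) rose. The Plagl1 call was lost when any 1 of the wild-type libraries, NSD1-dTAG library 2 or NSD1-dTAG library 3 was left out. Of 21 tested maternally expressed genes 3 fell, Grb10, Meg3 and Rian, by 0.47, 0.43 and 0.39 on the log2 scale (adjusted p = 0.0261, 0.0362 and 0.0312), each lost under 8 or more of the 19 alternatives. The list medians were 0.05 and 0.00.

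Of 26 tested genes of glycolysis and the hypoxia response, 13 rose and 0 fell, where 3.29% of all tested genes rose. The median log2 fold change of the list was 0.25. Slc16a3, a lactate exporter, was at 89.3, 92.8 and 88.2 CPM in the tagged and 43.8 to 58.4 CPM in the wild-type libraries (log2 fold change 0.83, SE 0.09, adjusted p = 0.000757). Slc2a1, the glucose transporter GLUT1, was at 401, 418 and 403 CPM against 290 to 310 CPM (0.46, SE 0.05, adjusted p = 0.000366). Every tagged library lay above every wild-type library for both transporters. The enzymes Pfkl (0.48, adjusted p = 0.00161), Pgk1 (0.45, adjusted p = 0.00306) and Aldoc (0.37, adjusted p = 0.0032) rose, and the hypoxia-inducible Vegfa (-0.13) and Ndrg1 (-0.02) were not called. With ERCC scaling 0 members were called and the list median was 0.08, against -0.13 for all genes. The 26 nuclear genes of oxidative phosphorylation, the 27 of the cell cycle and replication and the 7 mitochondrially encoded genes tested held 0 calls, with medians of 0.17, 0.05 and 0.04. Of 86 cytosolic ribosomal protein genes 1 was called, with a list median of 0.27, and their summed share was highest in NSD1-dTAG library 1, as given above. Both the oxidative phosphorylation and the ribosomal protein medians rest on that library: without it they were -0.06 and -0.06. Without the 3 libraries that stand apart they were 0.01 and 0.04. In that setting 26 of the 86 ribosomal protein genes were called higher and 3 lower, where 2033 of 14055 genes were called higher and 1914 lower.

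The core pluripotency factors Pou5f1 (0.17, adjusted p = 0.277), Sox2 (0.11, adjusted p = 0.451) and Nanog (0.20, adjusted p = 0.258) lay slightly above wild-type on average and were not called. Of 17 tested naive pluripotency genes 5 rose and 1 fell, where 3.29% of all tested genes rose and 4.87% fell. Klf5, a factor of naive self-renewal, was at 457, 422 and 414 CPM against 281 to 298 CPM (0.57, SE 0.05, adjusted p = 0.000194). Klf4 was at 373, 381 and 381 CPM against 317 to 333 CPM (0.22, SE 0.04, adjusted p = 0.0137), Prdm14 rose by 0.29 (adjusted p = 0.0149) and Manba by 0.32 (adjusted p = 0.00434). Tdh, the threonine dehydrogenase that mESCs rely on, was at 522, 455 and 444 CPM against 560 to 655 CPM (-0.34, SE 0.07, adjusted p = 0.0163). Groups did not overlap for Klf5, Klf4 or Tdh, but the calls of Klf4, Tdh and Prdm14 were lost without NSD1-dTAG library 2, and those of Klf4 and Tdh also without NSD1-dTAG library 3. Without library 2, the list had 2 rises and 0 falls. Of 13 tested targets of LIF and STAT3, which carry the LIF signal, 5 rose and 0 fell, with Socs3 at 0.23 (adjusted p = 0.0124) and Pim1 at 0.36 (adjusted p = 0.00737). Without NSD1-dTAG library 2, 1 of them was called. With ERCC scaling 0 genes of either list were called.

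Genes of the formative and primed epiblast, the stage that follows naive pluripotency, went lower more often than higher. Of 12 tested, 5 fell and 1 rose, where 4.87% of all tested genes fell and 3.29% rose. Those that fell were Dnmt3a, Sox3 (-0.92), Cdh2 (-0.81, adjusted p = 0.0145), Lef1 (-0.65, adjusted p = 0.000426) and Sox11 (-0.57, adjusted p = 0.00511). Foxd3 rose by 0.43 (adjusted p = 0.00473), while Otx2 (0.10), Pou3f1 (-0.09) and Dnmt3b (-0.09) were not called. The count of falls was 3 without NSD1-dTAG library 2 and 2 with ERCC scaling. Lin28b, an RNA-binding protein that blocks let-7 maturation, was the 1 call among 14 core pluripotency genes. It was at 5.54, 8.0 and 6.91 CPM against 11 to 15.4 CPM (-1.01, SE 0.14, adjusted p = 0.00178).

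Signalling targets moved in both directions. The lists are short, and over all tested genes 3.29% rose and 4.87% fell, so a few calls are not read as a change of a pathway. Of 17 tested targets of FGF and ERK signalling, Myc (0.47, adjusted p = 0.00577), Spry2, a feedback inhibitor of the pathway (0.53, adjusted p = 0.000366), and Dusp6 (0.22, adjusted p = 0.0391) rose, while the immediate early genes Egr1 (-0.78, adjusted p = 0.00557) and Fos (-0.50, adjusted p = 0.042) fell. Of 17 tested Wnt targets 3 fell, Lef1, Tnfrsf19 (-0.41, adjusted p = 0.0433) and Ccnd1 (-0.29, adjusted p = 0.0144), and 0 rose, with Axin2 at -0.01. Of 16 tested Nodal and BMP genes, 4 rose and 1 fell. Those that rose were Id1 (0.54), Id4 (0.42), Bmp4 (0.37) and Smad7 (0.27), with adjusted p of 0.0187, 0.0444, 0.00903 and 0.00806. The calls of Dusp6, Fos, Tnfrsf19 and Id4 were each lost under at least 10 of the 19 alternatives. Of 21 tested p53 targets, Pmaip1, which encodes the BH3-only protein NOXA, fell by 0.96 (adjusted p = 0.000425) and no other was called. Neural genes were split as well, with En2 (0.75, adjusted p = 0.000383) and Meis2 higher and Nes (-0.95, adjusted p = 0.000426) and Nrcam lower, 2 rises and 4 falls of 12 tested.

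**Figure D2:**
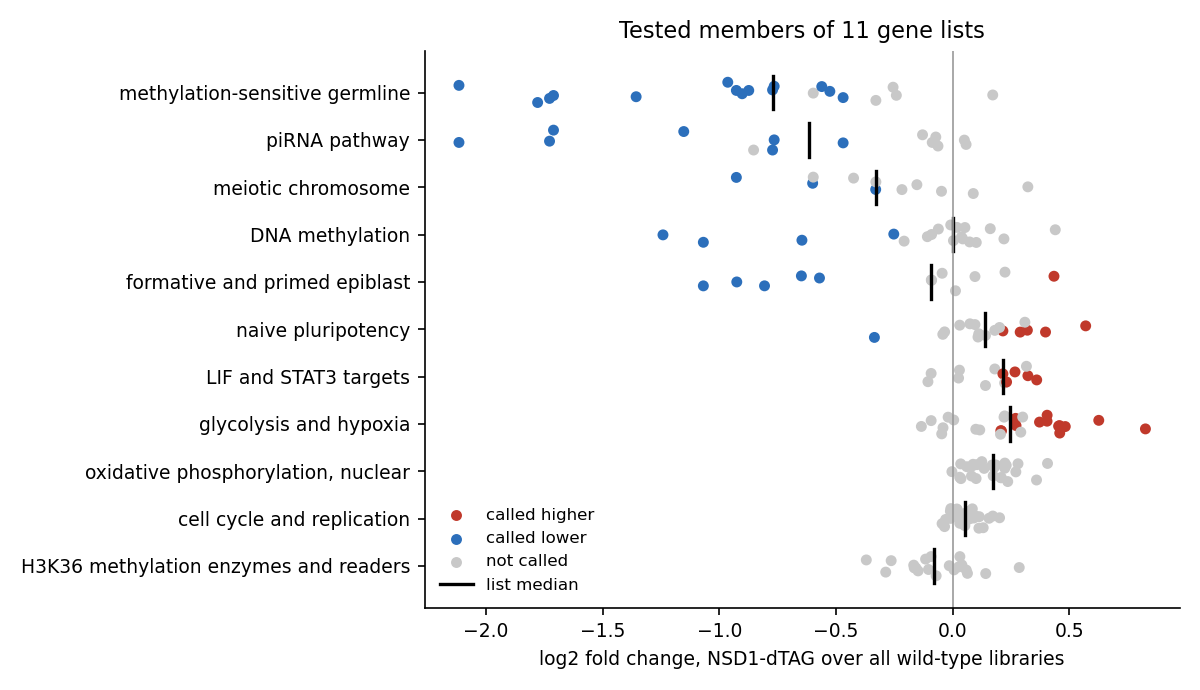
Log2 fold changes of the tested members of 11 gene lists, NSD1-dTAG over all wild-type libraries, with 1 point per gene (red, called higher; blue, called lower; grey, not called) and a black line at each list's median. The germline list lies furthest to the left, with a median of -0.77, and 13 of 26 glycolysis and hypoxia genes are red.

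The comparison was repeated against each wild-type group alone. The 3 tagged libraries are shared by all these comparisons, so the values stand side by side and are not independent of each other. Against nontreated wild-type cells 259 of 13895 genes (1.86%) were called, 76 higher (0.547%) and 183 lower (1.32%). Same-numbered libraries deviated together there, and with the replicate number as a block 785 were called, 292 higher and 493 lower. Libraries 2 and 3 also deviated together across numbers (r = 0.671 and 0.644), so the shared number is not told apart there from other things these libraries share. Against wild-type cells given dTAG-13, 111 of 13737 genes (0.808%) were called, 30 higher (0.218%) and 81 lower (0.59%). Mest was at -5.67 and -5.58 on the log2 scale against the 2 groups (adjusted p = 0.000157 and 0.000126), Fkbp6 at -2.12 and -2.12 (adjusted p = 0.00259 and 0.00733), and Piwil2 at -1.69 and -1.74 (adjusted p = 0.00844 and 0.0108). Meis2 was at 1.37 and 1.31 (adjusted p = 0.0113 and 0.0189), Synpo2l at 2.04 and 1.90 (adjusted p = 0.0123 and 0.0203) and Slc16a3 at 0.67 and 0.98 (adjusted p = 0.0147 and 0.0108). Dnmt3a was at -1.14 and -1.01, called against nontreated cells (adjusted p = 0.0266) and not called against treated cells (adjusted p = 0.0511). Of the germline list, 6 of 18 tested fell against nontreated cells (10 with the block) and 3 of 18 against treated cells. Of the glycolysis and hypoxia list, 2 of 26 rose against each group (8 against nontreated cells with the block). Both counts rest on single libraries. With 1 library left out, 1 to 12 genes were called against nontreated cells, except without NSD1-dTAG library 1 (1248), and 1 to 5 against treated cells where a wild-type library or NSD1-dTAG library 2 or 3 was left out (387 without NSD1-dTAG library 1). No difference between these 2 comparisons was tested.

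The calls were spread unevenly over the chromosomes. On chromosome 14, 89 of 466 tested genes rose and 46 fell, so that 28.97% were called. On the other autosomes 5.92% to 11.4% were called, with 1.33% to 4.72% higher and 2.83% to 6.72% lower, and on the X chromosome 2.38% rose and 9.72% fell. Chromosome 14 held 3.31% of the tested genes and 11.7% of the called ones. Outside it, 1015 of 13628 genes (7.45%) were called, 374 higher and 641 lower.

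**Figure D3:**
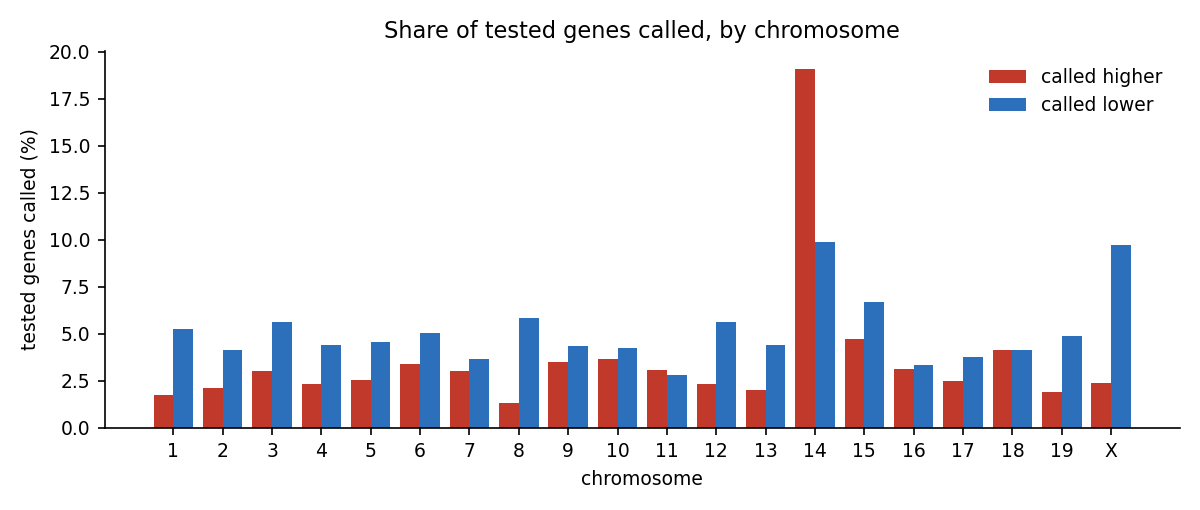
Share of tested genes called higher (red) or lower (blue) in NSD1-dTAG cells, in percent, for the 19 autosomes and the X chromosome. Chromosome 14 has the tallest bars, with 89 of its 466 genes higher and 46 lower.

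No whole chromosome was shifted by much. The median of each chromosome's genes, set against the median of all autosomal genes, differed between tagged and wild-type libraries by at most 0.0544 on the log2 scale over 21 chromosomes with enough genes. By an exact two-sided permutation test, 3 chromosomes had an unadjusted p below 0.05 and 0 had an adjusted one. Chromosome 8 was lower by that largest amount (-0.0351, -0.0691 and -0.0645 in the tagged libraries, against -0.00941 to 0.00484 in wild-type) and chromosome 14 was higher by 0.0331. With genes of at least 10 CPM alone, chromosome 14 was higher by 0.0686 and chromosome 8 at -0.0477, which turns their order. On all genes both had an exact permutation p = 0.0119, the smallest that 84 splits of 9 libraries can give, and an adjusted p of 0.125. With 21 chromosomes, an adjusted p below 0.05 would need several of them to reach such a low p together. The absence of adjusted calls therefore does not show that no chromosome moved. Chromosome 6 was higher by 0.00831 (exact permutation p = 0.0238, adjusted p = 0.167).

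The small shift in the median of chromosome 14 as a whole went with long stretches that moved opposite ways. In windows of 5 Mb with at least 15 tested genes, 338 in all, 7 had a median at least 0.25 from 0 on the log2 scale, and 6 of them lay on chromosome 14. Stretches were then drawn by eye between neighbouring genes, so their values are given with no test. In the first stretch (7293648 to 41013788, GRCm38, ending with Fam213a), 61 of 144 tested genes rose and 0 fell, with a median log2 fold change of 0.39, or 1.31-fold. In the second (43120937 to 63179578, ending with Fdft1), 4 of 161 rose and 10 fell, with a median of -0.01. In the third (63182443 to 87545504, ending with Tdrd3), 0 of 103 rose and 34 fell, with a median of -0.30, or 0.814-fold. In the fourth (89896228 to 123698588), 24 of 58 rose and 2 fell, with a median of 0.34, or 1.27-fold.

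Nearly all well-expressed genes of a stretch shared its direction. Among genes of at least 10 CPM in wild-type, 90 of 90 were above 0 in the first stretch, with quartiles at 0.33 and 0.44, and 55 of 57 were below 0 in the third, with quartiles at -0.32 and -0.19. In the fourth 32 of 35 were above 0, while the second had 53 above and 42 below. The genes near the borders, which were drawn where the values change, were as follows. Fam213a, the last gene of the first stretch, was at 0.41, and Txndc16, in the second, at 0.01. Fdft1, which encodes squalene synthase and closes the second stretch, was at 0.02, and Tdh, in the third, at -0.34. Tdrd3 in the third was at -0.57 and Mzt1 in the fourth at 0.35. Not every gene near a border followed its stretch: Gm7324, at the start of the second, was at 0.64 (adjusted p = 0.345), and the 2 tested genes between 90 and 95 Mb, in the fourth, had a median of -0.35.

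**Figure D4:**
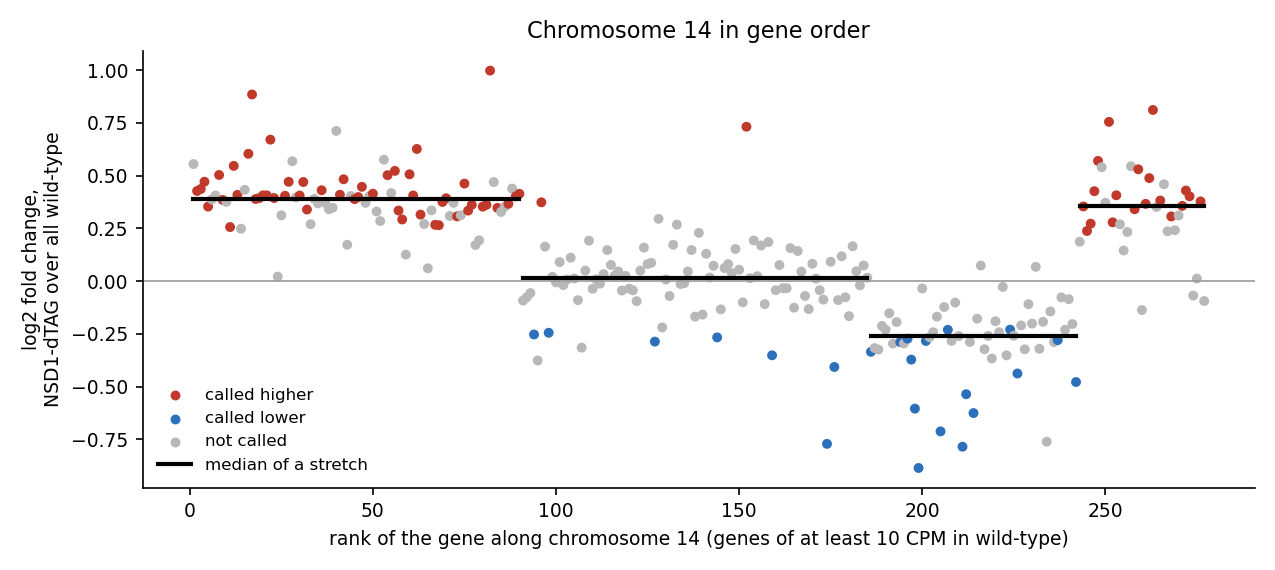
Log2 fold change, NSD1-dTAG over all wild-type libraries, of the genes of chromosome 14 with at least 10 CPM in wild-type, in their order along the chromosome (red, called higher; blue, called lower; grey, not called), with black lines at the medians of 4 stretches drawn after the values were seen. The points run at 0.39, 0.01, -0.26 and 0.35 in turn.

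All 3 tagged libraries carried the pattern. The stretches were drawn from the fold changes of these same libraries. Each value is a difference from the wild-type mean, so wild-type values centre on 0 by construction. The values below show the spread between libraries and are no independent check of the pattern. The median of the first stretch was 0.30, 0.38 and 0.37 above the wild-type mean in the tagged libraries, after centring each library on its autosomal genes, and between -0.01 and 0.01 in the 6 wild-type libraries. The third stretch was at -0.42, -0.35 and -0.34 in the tagged and -0.02 to 0.03 in the wild-type libraries. The fourth was at 0.28, 0.33 and 0.29 against -0.02 to 0.04, and the second at -0.02, -0.05 and -0.05, with the wild-type libraries at most at 0.03. Against each wild-type group alone, the medians of the 4 stretches were 0.37, -0.03, -0.31 and 0.30 for nontreated cells and 0.38, 0.00, -0.29 and 0.33 for treated cells. Without the 3 libraries that stand apart they were 0.38, -0.04, -0.34 and 0.32, with 107 rises in the first stretch and 66 falls in the third. With ERCC scaling, which moved the median of all genes to -0.13, they were 0.24, -0.16, -0.45 and 0.19, with 3 rises left in the first stretch and 0 in the fourth. These libraries measure RNA, and DNA was not analysed here.

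**Figure D5:**
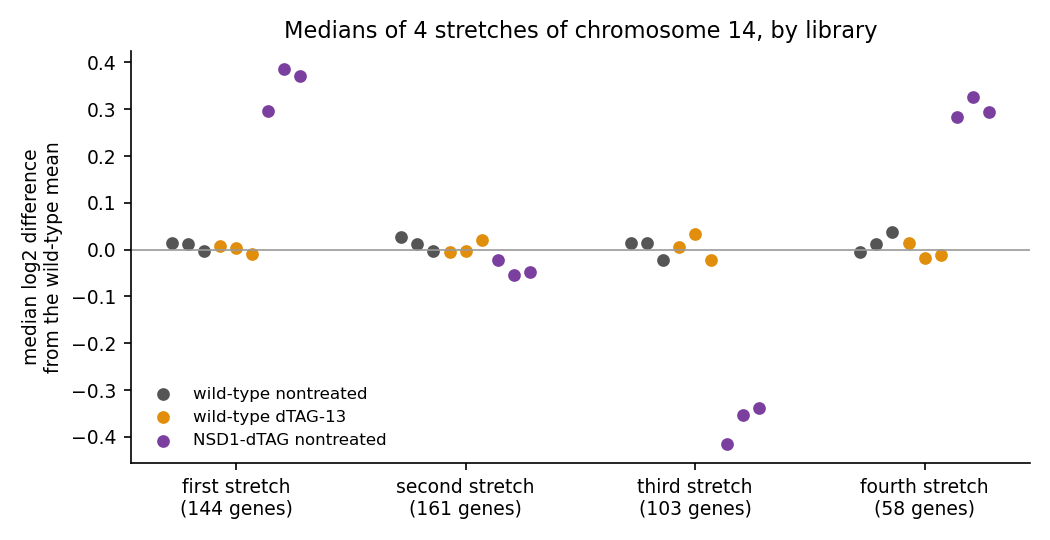
Median log2 difference from the wild-type mean over the genes of each of 4 stretches of chromosome 14, with 1 point per library, each library centred on its autosomal genes. The stretches were drawn after the values of these libraries were seen, and wild-type values centre on 0 by construction. The 3 NSD1-dTAG points lie at 0.30 to 0.38 in the first and at -0.42 to -0.34 in the third stretch, and the 6 wild-type points lie within 0.04 of 0 throughout.

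Several of the genes described above lie in these stretches. Klf5 (0.57) and Spry2 (0.53) are in the fourth, Rpl15 (0.55), the 1 ribosomal protein gene called (adjusted p = 0.0344, lost when any 1 of 4 wild-type libraries was left out), and Synpo2l (1.98) in the first, and Tdh (-0.34) and Piwil2 (-1.71) in the third. Spry2, for example, was at 95.4, 92.5 and 93.7 CPM against 61.6 to 68.6 CPM, and Ecd of the first stretch, a factor of pre-mRNA splicing and cell cycle progression, at 202, 213 and 215 CPM against 157 to 162 CPM (0.39, SE 0.04, adjusted p = 0.000653). Of the naive pluripotency calls, 4 of 5 rises and 0 of 1 falls lay outside chromosome 14. Of the germline list 13 of 14 falls lay outside it, of the glycolysis and hypoxia list 13 of 13 rises, and of the LIF and STAT3 list 5 of 5. Some genes of the third stretch fell much further than their neighbours. Clu, which encodes the secreted chaperone clusterin, was at 1.6, 0.881 and 1.66 CPM against 4.28 to 4.95 CPM (-1.74, SE 0.17, adjusted p = 0.000321), and Nuggc, a nuclear GTPase gene of germinal centre B cells, at 0.948, 1.03 and 0.745 CPM against 2.15 to 2.97 CPM (-1.59, adjusted p = 0.000321). The neurofilament genes Nefl (-1.22, adjusted p = 0.00122) and Nefm (-2.07, adjusted p = 0.00434), both neuronal, fell as well.

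The 1 shifted window outside chromosome 14 was on the X chromosome, from 50 to 55 Mb, where 6 of 21 tested genes fell and 0 rose, with a median of -0.51. Its median was -0.54, -0.52 and -0.39 in the tagged and -0.05 to 0.05 in the wild-type libraries. It holds Hs6st2, the kinase gene Stk26, at 3.75, 4.40 and 3.68 CPM against 8.07 to 9.12 CPM (-1.11, SE 0.09, adjusted p = 0.000111), and the glypican gene Gpc3, at 37.8, 34.2 and 37.7 CPM against 51.8 to 61.9 CPM (-0.63, SE 0.07, adjusted p = 0.000825). In the X inactivation list, Ftx, a noncoding neighbour of Jpx, was at 1.6, 1.39 and 1.78 CPM against 2.40 to 2.78 CPM (-0.70, SE 0.11, adjusted p = 0.00432), and the other 6 of the 8 tested genes were not called.

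Y-linked genes differed one by one. Zfy1, a zinc finger gene with testis roles, was at 0.0729, 0.11 and 0.166 CPM against 0.59 to 1.15 CPM (-2.91, SE 0.36, adjusted p = 0.00122), and Uba1y, a ubiquitin-activating enzyme gene, at 2.26, 3.23 and 3.6 CPM against 4.84 to 7.29 CPM (-1.0, SE 0.17, adjusted p = 0.00632). Usp9y, a ubiquitin protease gene, was at 2.22, 3.89 and 4.18 CPM against 0.632 to 2.10 CPM (1.4, SE 0.31, adjusted p = 0.0219), a call lost without any 1 of 3 libraries (NSD1-dTAG 2, NSD1-dTAG 3 and wild-type nontreated 2). The widely expressed Ddx3y (0.12), Uty (0.24) and Eif2s3y (0.39) were not called, and Kdm5d, Zfy2 and Sry were below the count filter. The sum of the Y-linked list was 335.5, 291.5 and 293.3 CPM in the tagged libraries and 252.8 to 266.4 CPM in wild-type, a difference of 49.3 CPM (exact two-sided permutation p = 0.0119, the smallest possible). Without NSD1-dTAG library 1 the difference was 34.9 CPM. The ERCC share of all counts was 0.496%, 0.312% and 0.292% in the tagged and 0.293% to 0.373% in the wild-type libraries, which overlap (exact permutation p = 0.524).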

How the data were processed

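Poly(A) RNA of 15 mouse libraries was sequenced by the authors, and 9 of them enter the comparisons. The files deposited by the authors hold raw counts per gene, with ERCC spike-in transcripts listed beside the genes. Per the submitters' processing notes, the tools included STAR, bcl2fastq 2.20.0.422 and DESeq2 1.30.0, with mm10 and GRCm38.p6 as builds. Annotation and strand of the counting were not given in the sources used here. Symbols and positions came from GENCODE M21, in which 241 of 55471 gene IDs had no match (at most 0.00196% of counts). Promoters came from RefSeq.

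Genes were filtered with filterByExpr, scaled by TMM and tested with edgeR 4.0.16 (quasi-likelihood, Benjamini-Hochberg adjustment over all genes tested, R 4.3.3), and called at an adjusted p below 0.05. The code was tested on simulated data. CPM values of the stem cell libraries are counts scaled to the library's total over the filtered genes, multiplied by its TMM factor. Those of the embryoid bodies are counts scaled to the library's gene total, without a TMM factor. Stem cell and embryoid body CPM are therefore on different scales. Single values were compared by exact two-sided permutation over libraries. Alternatives were DESeq2 1.42.0, limma 3.58.1 voom, other scalings and filters, a gene-length offset, a replicate block and left-out libraries; those on gene lists and stretches were added after seeing the data.

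The groups, gene lists and members were chosen with earlier results of these data known. Genes are named as the 15 largest rises and falls among called genes of at least 1 CPM without overlap between groups, up to 5 called members of each of 39 lists (or the 2 most abundant where none was called), up to 3 of each chromosome or window described, and a fixed set of Nsd1-related, pluripotency and Y-linked genes. Other genes given by value were chosen after their values were seen. Some genes that the rule names are not reported here. Same-numbered libraries of the NSD1-dTAG and nontreated wild-type groups deviated together (r = 0.911, 0.726 and 0.72 over 8953 genes). Those of the NSD1-dTAG and dTAG-13 groups were at -0.793, 0.81 and -0.846. Differently numbered libraries also deviated together, NSD1-dTAG 1 with dTAG-13 wild-type 3 at 0.894. The library that stands apart is number 1 in the NSD1-dTAG and nontreated groups and number 3 in the dTAG-13 group. These correlations therefore cannot show whether the numbers pair samples, and the replicate block rests on the numbers in the labels.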

Additional observations from a re-analysis of the deposited data

Results flagged for a closer look

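Of 162 genes checked in the 6 wild-type libraries, 11 had 1 library set off from the other 5 by more than Dixon's 95% limit, where chance gives about 1 in 20. Wild-type dTAG-13 library 3 was the highest for 5 of them: Ube2l6 at 1.14 CPM (next 0.648), Ubac2 at 70.4 CPM (next 65.4), Pim3 at 170 CPM (next 154), H2-K1 at 12.2 CPM (next 9.56) and mt-Nd1 at 4010 CPM (next 3650). It is 1 of the 3 libraries that stand apart. Wild-type nontreated library 3 was the highest for Cdh3 at 13.2 CPM (next 9.35) and the lowest for Ecd at 157 CPM (next 160) and Nuggc at 2.15 CPM (next 2.74). Mcm3 was highest in wild-type nontreated library 2 at 653 CPM (next 646), Hormad1 in wild-type nontreated library 1 at 5.05 CPM (next 4.04) and Ifit2 in wild-type dTAG-13 library 2 at 2.08 CPM (next 1.59).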

How the results depend on the processing

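Against all wild-type libraries, 1150 genes were called, 293 with ERCC scaling, 3947 without the libraries that stand apart, and 713 to 1415 with 1 library left out, the lowest without NSD1-dTAG library 2. Against nontreated wild-type cells 259 became 636 with DESeq2, 1 with ERCC scaling, 637 with a gene-length offset, 3123 without the libraries that stand apart and 1 to 1248 with 1 library left out. Against treated wild-type cells 111 became 477 with DESeq2, 34 with ERCC scaling, 212 with no filter, 426 with a gene-length offset, 3199 without the libraries that stand apart and 1 to 387 with 1 library left out. With the replicate block, the calls were 1035 against all wild-type, 785 against nontreated and 1 against treated cells. With the block and the gene-length offset they were 1393 against nontreated and 1 against treated cells. Whether the numbers pair the samples of the last comparison cannot be told. The library that stands apart is number 1 in the tagged and number 3 in the treated group. The glycolysis and hypoxia list had 0 rises with ERCC scaling, and the Y-linked sum differed by 35.9 CPM without the libraries that stand apart (exact permutation p = 0.0667, the smallest possible). Rnf44, which was not called, changed sign to 0.0747 on the log2 scale without those libraries. The cause of these changes was not tested. Of 133 named genes that were called, 133 kept their direction under all 19 alternatives, 95 kept the call under all but ERCC scaling and 49 under all 19. These genes were chosen for being called in the same libraries, so a kept direction is no independent check. With ERCC scaling alone, 52 kept it. With 3 tagged libraries, 1 of them apart, small differences are not resolved.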
